A study of Mus musculus with 6 samples.

Results

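Clusters of open chromatin sites that were found in the posterior second heart field (pSHF) and not in the atria (HT) of mouse embryos are described here, as 793 pSHF-restricted peaks in 166 windows of the genome. A peak is an interval where reads of the assay for transposase-accessible chromatin (ATAC-seq) pile up over the local background. Lines with equal intervals were merged, a peak was called restricted when it shared no base with any peak of the other tissue, and the mm10 genome was divided into windows of 100 kb. Each restricted peak was placed by its summit, the base of highest pileup. The members were selected by the peak counts themselves, as the pSHF-restricted peaks in windows where they outnumbered HT-restricted peaks by 4 or more. They made up 5.24% of the 15132 pSHF-restricted peaks (exact binomial 95% interval 4.89% to 5.61%, counting error only) and stood among 93285 peaks of both tissues. That interval treats peaks as independent, which members are not, because the rule takes them in groups by window. It is therefore too narrow. Because the peak lists chose the windows, every pSHF value set against an HT value inside them is a description with no test.

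The tissues were pSHF and atria (HT) microdissected at E10.0 from wild-type (WT) CD1 embryos, an outbred strain, with no treatment or engineered allele in either. Tissue was pooled over embryos, and there were 3 samples of pSHF and 3 samples of HT. One deposited peak list was used for each tissue, so no value has a spread between replicates and no difference was tested. The series title places the study in work on Hedgehog signalling and the timing of differentiation.

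The pSHF is the dorsal mesoderm behind the heart tube that supplies cells to the inflow tract and the atrial septum. Its cells receive Hedgehog signals from the foregut endoderm, and forkhead, T-box and Gli transcription factors act in them before they enter the heart and switch on muscle genes. Genes of developmental regulators are often surrounded by several distal elements spread over large stretches of sequence, so that a group of open sites can mark a regulatory neighbourhood better than a single site can. Hox genes of the anterior groups respond to retinoic acid and mark the posterior part of the second heart field.

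Of the 793 members, 41 (5.17%) lay over a RefSeq promoter entry, which runs here from before to just after a gene's start. This compared with 4.38% of the other pSHF-restricted peaks and 35.4% of pSHF peaks shared with HT. These members touched the entries of 39 genes, 23 of them protein-coding and none a miRNA gene. The promoters printed are a selection, not all, of those where a member overlapped the promoter entry of a gene at a window named in the results. The member need not reach the gene start. Bases inside the member are in capitals and the rest in lower case. All are 5′ to 3′ on the gene's strand and come from RefSeq, build GRCm38.p6, whose coordinates are those of mm10. Halr1 (chr6:52102699-52102998, plus strand), a long non-coding RNA gene beside HoxA, had 209 bases inside a member, Hoxa2 (chr6:52164782-52165081, minus strand) had 30, and the non-coding gene Gm15050 within Hoxa3 (chr6:52172631-52172930, plus strand) had 262. Flt1 (chr5:147725962-147726261, minus strand) had 107 bases inside a member, Clmn (chr12:104865027-104865326, minus strand) had 182, and St6gal1 (chr16:23225771-23226070, plus strand) had 169.
Halr1: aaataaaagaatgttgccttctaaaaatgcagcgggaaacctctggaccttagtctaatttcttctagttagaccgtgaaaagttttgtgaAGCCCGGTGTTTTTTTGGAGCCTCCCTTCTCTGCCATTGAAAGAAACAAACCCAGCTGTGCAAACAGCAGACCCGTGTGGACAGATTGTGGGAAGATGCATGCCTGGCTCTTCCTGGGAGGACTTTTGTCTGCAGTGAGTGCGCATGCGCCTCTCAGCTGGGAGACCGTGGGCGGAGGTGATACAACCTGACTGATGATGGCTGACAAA
Hoxa2: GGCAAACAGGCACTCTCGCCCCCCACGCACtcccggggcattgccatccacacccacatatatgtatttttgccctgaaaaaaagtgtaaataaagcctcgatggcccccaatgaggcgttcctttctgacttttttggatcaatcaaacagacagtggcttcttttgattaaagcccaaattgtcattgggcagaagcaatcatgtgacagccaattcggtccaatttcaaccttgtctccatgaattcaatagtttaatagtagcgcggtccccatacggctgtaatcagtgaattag
Gm15050: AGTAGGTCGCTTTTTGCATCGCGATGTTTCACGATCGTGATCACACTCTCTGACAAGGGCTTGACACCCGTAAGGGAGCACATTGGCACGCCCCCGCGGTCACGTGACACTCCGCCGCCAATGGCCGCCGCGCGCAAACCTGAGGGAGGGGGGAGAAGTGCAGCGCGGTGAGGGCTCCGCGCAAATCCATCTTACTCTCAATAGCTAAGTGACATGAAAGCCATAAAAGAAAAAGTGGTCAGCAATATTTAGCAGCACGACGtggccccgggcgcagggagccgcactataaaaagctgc
Flt1: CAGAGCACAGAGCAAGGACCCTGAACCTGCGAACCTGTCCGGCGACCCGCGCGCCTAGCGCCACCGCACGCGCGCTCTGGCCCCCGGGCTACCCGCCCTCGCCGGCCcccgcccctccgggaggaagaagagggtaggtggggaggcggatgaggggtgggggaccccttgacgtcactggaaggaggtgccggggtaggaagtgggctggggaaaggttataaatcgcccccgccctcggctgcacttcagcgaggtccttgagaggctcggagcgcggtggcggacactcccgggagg
Clmn: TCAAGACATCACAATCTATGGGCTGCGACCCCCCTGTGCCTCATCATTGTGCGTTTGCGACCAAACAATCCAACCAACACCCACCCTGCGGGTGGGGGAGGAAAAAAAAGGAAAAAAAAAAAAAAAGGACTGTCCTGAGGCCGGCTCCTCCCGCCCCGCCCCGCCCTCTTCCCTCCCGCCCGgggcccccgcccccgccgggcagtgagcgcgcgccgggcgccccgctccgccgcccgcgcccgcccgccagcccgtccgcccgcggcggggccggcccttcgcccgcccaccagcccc
St6gal1: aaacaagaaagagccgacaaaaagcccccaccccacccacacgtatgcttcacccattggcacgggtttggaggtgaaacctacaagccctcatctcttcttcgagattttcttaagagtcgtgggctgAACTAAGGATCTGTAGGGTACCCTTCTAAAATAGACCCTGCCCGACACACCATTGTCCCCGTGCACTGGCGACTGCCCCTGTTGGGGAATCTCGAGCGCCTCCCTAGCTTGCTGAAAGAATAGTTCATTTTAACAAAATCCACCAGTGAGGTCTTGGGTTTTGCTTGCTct

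The capitals fall on different sides of the gene start. In Hoxa2, Flt1 and Clmn the member covered the upstream end of the promoter, in St6gal1 and Halr1 the downstream end with the start itself, and in Gm15050 nearly the whole entry. A search of both strands found the Meis motif TGACAG in the Hoxa2 promoter, at bases 207 to 212 counted from the 5′ end and outside the part covered by the member. TGACAG was present in 12 of the 42 promoter entries under members (28.6%; some genes have several) and in 19.2% of all 32851 RefSeq promoters. The Gli motif GACCACCCA was found in none of these 42 entries and in 0.253% of all promoters. Several motifs were searched, and no share was tested. The forkhead motif TGTTTAC was in 4.76% of the entries and 3.65% of all promoters. The Gata motif AGATAA was in 2.38% and 11.2%, and the T-box motif AGGTGTGA in 0% and 1.28%.

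Peaks of both tissues gave the setting. The pSHF list had 44018 peaks, of which 28886 were shared and 34.4% restricted. The HT list had 49267 peaks, of which 26867 were shared and 45.5% restricted. The median summit held 11 reads in pSHF and 12 reads in HT, as recovered from each peak's fold enrichment and p-value. Peaks within 1 kb of a gene end were present at 12 of 19 second heart field genes in pSHF and at 12 of 19 in HT. They were missing in pSHF and present in HT at Tbx5 and Hand2, and present in pSHF and missing in HT at Foxf1 and Foxf2. Of 9 cardiomyocyte genes, 2 had such a peak in pSHF and 6 in HT, with none in pSHF at Myl7, Actc1, Ttn and Nppa. Foregut endoderm markers had one at 8 of 13 genes in pSHF and 6 of 13 in HT, and erythroid markers at 2 of 13 in pSHF and 8 of 13 in HT. The part of these cell types in the clusters was not tested.

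A window with a clear majority of pSHF-restricted peaks was rare. Of 15333 windows with any restricted peak, 166 (1.08%) had a pSHF excess of 4 or more, and 664 (4.33%) had an HT excess of the same size. The HT windows held 3394 peaks, or 15.2% of the 22400 HT-restricted peaks. Among the pSHF windows, 117 had an excess of 4, 32 of 5, 13 of 6, 3 of 7 and 1 of 9, while 362 windows lay just outside with an excess of 3. Windows with an excess of 4 held 507 pSHF-restricted and 39 HT-restricted peaks, and those with an excess of 3 held 1214 pSHF-restricted and 128 HT-restricted peaks. The median fold enrichment of the pSHF-restricted peaks was 4.31 on both sides of that edge. HT-restricted peaks were absent in 119 of the 166 windows, present once in 37 and as a pair in 10. The excess depended on weak peaks: with only peaks of −log10 q of 5 or more, 12 windows had a pSHF excess and 412 an HT excess. Among those 12 were 7 of the 166 windows. Weak peaks were dropped there before overlap was judged, so a peak shared in the full lists could count as restricted. With restriction decided on the full lists and weak peaks dropped afterwards, the counts were 2 and 164.

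**Figure D1:**
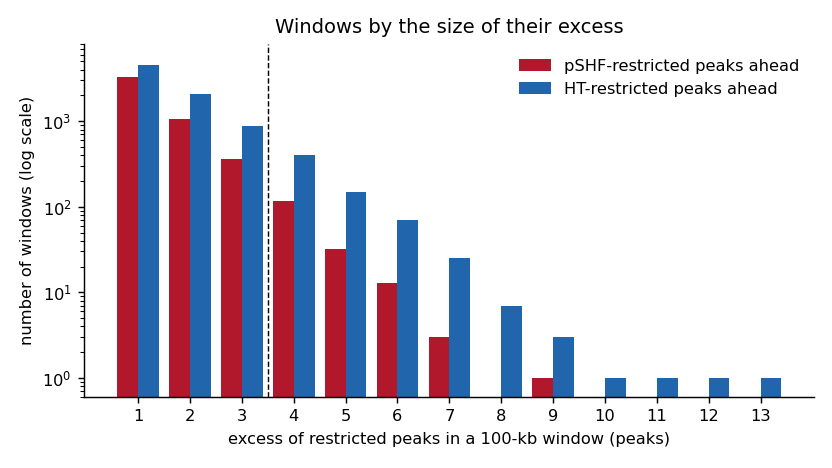
Number of 100-kb windows (log axis) by the excess of restricted peaks in the window, with pSHF ahead in red and HT ahead in blue; the dashed line marks the smallest excess kept. At every size plotted from 1 to 7 the blue bar stands above the red one, and the red bars end at an excess of 9 peaks.

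The members were narrow sites of modest height. Fold enrichment is the authors' ratio of the summit pileup to the local background, taken here with a read added to both. The added read lowers the ratio most where reads are few. It had a median of 4.31 over members (quartiles 3.77 and 4.85, range 2.74 to 9.47). The other 14339 pSHF-restricted peaks had the same median and quartiles. Members had a median width of 171 bp and a median summit of 9 reads, and the other pSHF-restricted peaks 163 bp and 8 reads. Shared pSHF peaks were taller and wider, with a median fold of 5.54, 329 bp and 15 reads. HT-restricted peaks in HT windows had a median fold of 4.85 and 11 reads. A −log10 q of 5 or more, on the authors' scale of significance after correction for many peaks, was reached by 18.3% of members, 15.7% of the other pSHF-restricted peaks and 46.1% of HT-restricted peaks in HT windows. In 76 windows no member reached it.

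**Figure D2:**
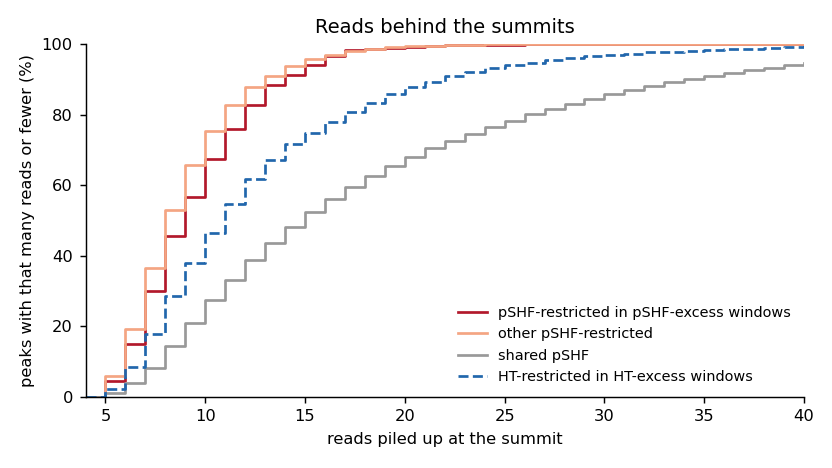
Cumulative share of peaks (%) against reads piled up at the summit, for members (dark red), other pSHF-restricted peaks (light red), HT-restricted peaks in HT windows (dashed blue) and shared pSHF peaks (grey). Both pSHF-restricted curves climb first, with medians of 9 and 8 reads, and the shared curve last, with a median of 15 reads.

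Few reads stand behind such a peak. There were 450 members (56.7%) with 9 reads or fewer at the summit, and 199 (25.1%) sat on the lowest background of the list, 0.857 reads. On that background 7 reads give a fold of 4.31, and the exact Poisson 95% interval of 7 reads is 2.81 to 14.4 (counting error only; reads from PCR are not independent molecules). Identical folds in the lists that follow come from this small set of whole read counts. At this depth the lack of an HT peak does not show closed chromatin in HT.

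The longest cluster lay beside Foxd2, which encodes a forkhead factor of embryonic mesenchyme. At chr4:114600001-115000000, 4 adjoining windows held 19 pSHF-restricted peaks and no HT-restricted peak, along with 8 pSHF and 7 HT peaks shared between tissues. The stretch runs from the end of Trabd2b, a Wnt-inactivating metalloprotease gene, past Foxd2 and Foxe3, a lens forkhead gene, to Cmpk1. The window between Trabd2b and Foxd2 had 6 members with folds of 3.59, 3.62, 5.03, 3.70, 5.79 and 5.45, none over a coding gene. The tallest member of the stretch, at chr4:114870232-114870482, had a fold of 6.47 and 16 reads and lay 35960 bp from Foxd2. A pair of members with folds of 4.48 and 4.35 lay within 1 kb of an end of Foxe3, where the nearest HT peaks were 15825 bp and 16316 bp away. Of the 19 members, 6 reached a −log10 q of 5. The shared peak at the end of Foxd2 itself had a fold of 6.84 in pSHF and 7.02 in HT.

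The cluster beside Foxf1 came next in length, with 3 windows at chr8:120800001-121100000. Foxf1 encodes the forkhead factor of splanchnic mesoderm and is a known Hedgehog target. The stretch held 16 pSHF-restricted and 2 HT-restricted peaks, with a median member fold of 3.69 and a highest of 5.21. At the gene itself, members with folds of 3.50 and 3.26 lay 600 bp and 352 bp from the gene, and a member with a fold of 3.83 lay inside it, 294 bp from an end. These 3 summits held 14, 13 and 16 reads, and the nearest HT peaks were 8821 bp, 8586 bp and 8009 bp away. The other members were spread over the intergenic side, among them close pairs at 146910 bp and 146621 bp, at 124848 bp and 124599 bp, and at 40538 bp and 40275 bp from the gene. HT-restricted peaks in the stretch had folds of 3.47 and 4.44. Foxc2, another mesenchymal forkhead gene, lay 16.2 kb beyond the right edge. A single member of this stretch reached a −log10 q of 5, so the cluster rests mostly on weak sites.

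Gas1 stood alone in its stretch. It encodes a membrane-anchored co-receptor that binds Sonic hedgehog, and it was the only one of 17 Hedgehog pathway genes at a pSHF window. The 2 windows at chr13:60100001-60300000 held 12 pSHF-restricted peaks and 1 HT-restricted peak, and the HT-restricted one had a fold of 6.02. In the window that contains the gene the members had folds of 4.31, 3.63, 3.61 and 3.77. The window to its right had 8 members with folds of 6.79, 3.99, 4.32, 4.85, 3.23, 3.48, 7.59 and 4.31. The tall ones lay 48946 bp and 78525 bp from Gas1 and had 17 and 16 reads. The gene's own end had a shared peak, with a fold of 5.86 in pSHF and 7.10 in HT. The pSHF excess was therefore in the flank and not at the gene.

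Of the 7 stretches, the one at Errfi1 had the highest median fold. Errfi1 encodes an inhibitor that binds receptors of the Egf family. At chr4:150700001-150900000, 12 pSHF-restricted peaks and 1 HT-restricted peak were called, with a median member fold of 5.30, and 7 members reached a −log10 q of 5. The intergenic window left of the gene had 7 members with folds of 3.98, 5.37, 5.98, 5.33, 6.46, 5.28 and 4.81 and no HT-restricted peak. In the window that holds Errfi1 and an end of Park7 the members had folds of 5.91, 5.89, 4.62, 4.64 and 4.69. The shared peak inside Errfi1 had a fold of 6.92 in pSHF and 13.7 in HT. The other shared peaks of the stretch were also higher in HT. Their folds were 4.43, 4.55 and 4.76 in pSHF and 5.75, 7.02 and 6.92 in HT.

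Pkdcc, which encodes a secreted kinase needed for growth of the limb bones, had the window with the largest excess. At chr17:83100001-83200000 there were 10 pSHF-restricted peaks and 1 HT-restricted peak. Their folds were 5.89, 3.69, 4.06, 3.31, 4.22, 4.60, 3.86, 5.17, 4.69 and 4.90, and the HT-restricted peak had 5.79. The window holds no coding gene, and Pkdcc lay 15.3 kb to its right and Slc8a1 1360 kb to its left. The member nearest the gene was 36026 bp away. Shared peaks in the window had folds of 4.66 and 7.40 in pSHF and 5.78 and 10.4 in HT. Of the 10 members, 2 reached a −log10 q of 5. With only peaks at or above that value the excess fell from 9 to 0, or to 1 with restriction decided on the full lists.

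**Figure D3:**
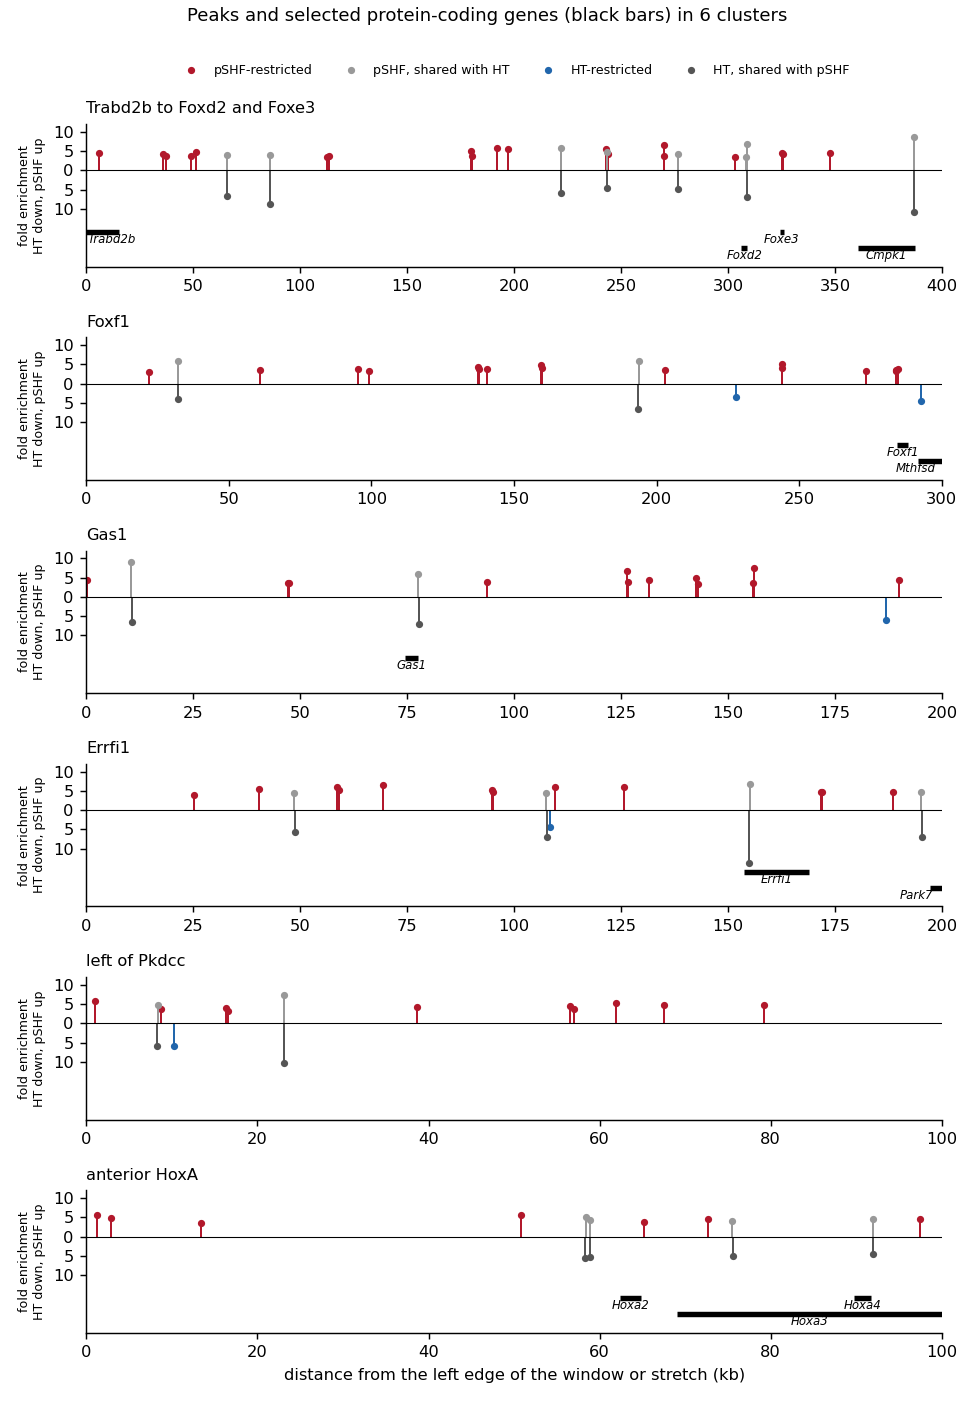
Fold enrichment of every peak along 6 clusters, against distance (kb) from the left edge of the window or stretch, with pSHF peaks drawn up (restricted in red, shared in light grey) and HT peaks down (restricted in blue, shared in dark grey); black bars are selected protein-coding genes. Red stems are spread over the flanks of genes, often as close pairs, and also stand at Foxf1 and Foxe3 themselves. Shared peaks stand at the end of Gas1 and inside Errfi1. The panels for Foxd2 and HoxA have no blue stem.

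Anterior Hox genes, which pattern the body axis, were at pSHF windows in 2 of their clusters. The HoxA window, chr6:52100001-52200000, holds Hoxa2, Hoxa3 and Hoxa4 and ends 1.75 kb short of Hoxa5. It held 7 pSHF-restricted peaks and no HT-restricted peak. Among their folds were 5.66, 4.96 and 3.48 on the side towards Skap2, 3.84 at 309 bp from Hoxa2, and 4.58 and 4.52 inside Hoxa3. The member with a fold of 4.58 covers most of the Gm15050 promoter printed above and had 27 reads and a −log10 q of 8.81. The Halr1 promoter was covered by the member with a fold of 4.96. Shared peaks were also present, 4 in each tissue, so the cluster was open in HT as well.

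The HoxB window, chr11:96300001-96400000, held 6 pSHF-restricted and 2 HT-restricted peaks. Members had folds of 3.05, 3.04 and 3.23 inside Hoxb3, 4.13 at 370 bp from an end of Hoxb2, and 4.97 and 5.78 at 1713 bp and 4331 bp from Hoxb1. The HT-restricted peaks had folds of 3.43 and 3.75. The tall members of this window were thus those beside Hoxb1, the most anterior gene of the cluster. In all, 10 of 18 listed Hox and cofactor genes were at a pSHF window, but they come from these 2 windows. Meis1 and Meis2, whose proteins bind DNA together with Hox proteins, were at HT windows.

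Other regulators of second heart field and neighbouring mesoderm had lone windows. Tbx1, a T-box gene of the pharyngeal second heart field, shared chr16:18500001-18600000 with Gnb1l, and the window had 4 pSHF-restricted peaks and no HT-restricted peak. The folds were 3.94 and 3.11 inside Gnb1l, 3.04 inside Tbx1 and 3.57 at 1290 bp from Tbx1, so none was tall. Six2, a homeobox gene of renal and facial mesenchyme, lay 11.7 kb left of chr17:85700001-85800000, with 5 pSHF-restricted peaks and 1 HT-restricted peak. Its members had folds of 3.84, 5.82, 5.66, 4.69 and 5.73, and the HT-restricted peak had 6.58. Meox1, a somite gene and here a marker of another tissue, lay 5.65 kb left of chr11:101900001-102000000, where 5 members had folds between 3.37 and 5.24 and no HT-restricted peak was called. That window also holds Sost, a Wnt inhibitor gene, and for 4 of its 5 members Sost was the nearest coding gene.

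The Foxa2 window held one of the tallest members. Foxa2 encodes a forkhead factor of endoderm and floor plate, so it marks a tissue next to the pSHF. At chr2:147900001-148000000, 42.9 kb from the gene, 4 members had folds of 3.38, 6.06, 4.85 and 8.23 with no HT-restricted peak. The member with a fold of 8.23, at chr2:147968580-147969077, had 15 reads and lay 74114 bp from Foxa2 and 44469 bp from the nearest HT peak. Of the 13 foregut endoderm markers this was the only one at a pSHF window, and Cdh1 was the only one at an HT window.

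Signalling ligands and receptors contributed 5 lone windows. Pdgfc, a ligand of Pdgf receptor alpha, had 5 members at chr3:81200001-81300000 with folds of 6.61, 6.25, 4.85, 3.23 and 3.77. The nearest HT peak to any of them, shared or not, was 82433 bp away. Rspo1, which amplifies Wnt signalling, overlapped chr4:124900001-125000000, where 5 members had folds of 4.32, 5.37, 4.37, 4.04 and 6.38. The last, inside Rspo1, had 26 reads and a −log10 q of 12.4.

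Guidance receptor genes were at the next pair of windows. Nrp2, a receptor for semaphorins and Vegf, overlapped chr1:62800001-62900000, with 6 pSHF-restricted peaks at folds of 4.81, 3.84, 3.86, 4.31, 4.31 and 3.23. The 2 HT-restricted peaks there included one with a fold of 10.2, taller than any member in the window. Unc5b, a netrin receptor gene, lay 68.4 kb left of chr10:60900001-61000000, where 4 members had folds of 4.31, 5.19, 3.82 and 4.97 and no HT-restricted peak was called.

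Flt1, a Vegf receptor gene and an endothelial marker, had 6 members and no HT-restricted peak at chr5:147700001-147800000. The folds were 4.55, 5.55 and 4.64 near the gene start and 3.17, 3.14 and 3.19 upstream. The members at the start were not far from HT peaks: HT intervals lay 335 bp, 0 bp (abutting) and 60 bp away. Flt1 was also at an HT window, the only listed gene at windows of both kinds. Where an HT peak within 1 kb made a peak shared, the excess in this window was 3.

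Some clusters lay within long genes with no listed role in the tissue. Pappa, which encodes a protease of insulin-like growth factor binding proteins, had 12 pSHF-restricted and 2 HT-restricted peaks at chr4:65100001-65300000, with 10 members inside the gene. The tallest had folds of 7.64 and 7.03, and the HT-restricted peaks 4.74 and 4.93. Lrmda, a leucine-rich repeat gene, held 19 members, the most of any gene. Its stretch at chr14:22500001-22700000 held 9 pSHF-restricted peaks beside 1 HT-restricted peak, with a median member fold of 4.69, and a separate window at chr14:22100001-22200000 had 6 and 0.

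Clmn and Syne3, both genes of membrane proteins that bind actin or the nuclear envelope, shared chr12:104800001-105000000 with 13 pSHF-restricted and 3 HT-restricted peaks. The median member fold was 4.14, and members with folds of 3.78, 4.14 and 4.16 stood at the Clmn start, 12148 bp or more from any HT peak. The HT-restricted peaks were taller, with folds of 9.66, 5.23 and 5.49. With peaks below a −log10 q of 5 left out, HT-restricted peaks led by 1 in the Clmn window.

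The remaining windows with an excess of 6 or more were 9 in number. Limch1, a regulator of non-muscle myosin, and Slc39a11, a zinc transporter gene, each held 7 members, all inside the gene, and 1 HT-restricted peak. Each of the other 7 had 6 and 0. St6gal1, a sialyltransferase gene, had folds of 3.41 to 4.85, Zhx2, a zinc finger and homeobox gene, 2.81 to 4.85, Dennd1a 3.16 to 4.76 and Ptpn13, a phosphatase gene, 3.13 to 4.85. The window between Ackr3, a chemokine-scavenging receptor gene, and Cops8 had folds of 3.25 to 5.40, and that beside Nebl, a Z-disc gene, 3.47 to 5.21. The last was the Lrmda window given above. Where an HT peak within 1 kb made a peak shared, the excess was 3 in the St6gal1 and Ptpn13 windows, below the 4 needed. In the Slc39a11, St6gal1, Zhx2, Dennd1a, Ptpn13 and Nebl windows no member reached a −log10 q of 5.

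The strongest members were not in the largest clusters. The highest fold, 9.47, belonged to chr15:7683317-7683866, with 22 reads and a −log10 q of 16.0, in a window with 4 members, and its nearest coding gene was Gdnf, a ligand of the Ret receptor, 126363 bp away. The nearest HT peak was 126795 bp off. The next, chr14:106393904-106394408, had a fold of 8.34 and 16 reads and lay 258302 bp from Trim52. The third was the Foxa2 member.

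Coding genes were about as frequent in pSHF windows as in other windows and less frequent than in HT windows. The mean was 1.45 genes in pSHF windows, 2.2 in HT windows and 1.51 in all windows with a restricted peak. A protein-coding gene overlapped 119 of the 166 windows, and 21 windows had none within 100 kb of an edge. Windows without a gene were 28.3% of pSHF windows, 9.49% of HT windows and 24.9% of all windows with a restricted peak. Of the members, 48.9% lay between protein-coding genes (exact 95% interval 45.4% to 52.5%), 41.5% inside one (38.0% to 45.0%) and 9.58% within 1 kb of an end of one (7.63% to 11.8%). Other pSHF-restricted peaks were close to this, with 44.3% between genes, 44.1% inside one and 11.7% near an end. Among HT-restricted peaks of HT windows 36.3% lay between genes, 55.2% inside one and 8.46% near an end. Non-coding genes were left out of these shares. With members near an end counted too, 48.7% of members were inside a protein-coding gene and 62.4% inside any annotated gene. Members were a median of 40.3 kb from a gene end, other pSHF-restricted peaks 27.5 kb and HT peaks of HT windows 17.5 kb. The exact intervals treat peaks as independent, which close pairs and members taken in groups by window are not. One window without a gene in reach lay 498 kb from Isl1, a homeobox gene of second heart field progenitors, and its 5 members each had a fold of 4.85. The 1 HT-restricted peak there had a fold of 5.48, and no member reached a −log10 q of 5. The window was singled out after its values were seen.

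Windows were spread over 19 of the 20 chromosomes in the lists. Chromosome 4 had the most, 19 windows with 94 members, or 9.29% of its pSHF-restricted peaks, against 1.7% on chromosome 9. Chromosome X had no pSHF window for its 249 pSHF-restricted peaks, and 8 HT windows. Joining adjoining windows gave 7 stretches with 17 windows and 93 members, and 149 windows stood alone. All 7 stretches have been named above. Allowing a gap of 1 window gave 8, adding a stretch with no coding gene at chr13:44100001-44400000.

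The windows around a pSHF window were near balance between the tissues. In the 327 windows next to one, pSHF was ahead in 37.9% and HT in 36.4%, and with the windows that themselves met the rule left out, 310 remained with pSHF ahead in 34.5% and HT in 38.4%. At 5 windows away, with all windows kept, pSHF was ahead in 25.8% and HT in 41.7%. Over all 25650 windows pSHF was ahead in 19.2% and HT in 32.2%.

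Members were often close to each other. Of the 627 gaps between successive members in a window, 25.2% were under 1 kb, against 10.6% of the 2730 gaps in HT windows, while the upper quartiles of the gaps were 24.1 kb and 21.2 kb. The Foxf1 and Gas1 pairs are examples. Gaps between other pSHF-restricted peaks were not measured, and a rule on counts per window can favour close peaks. Closeness was therefore not tested as a trait of the clusters. Counting peaks of a list within 1 kb of each other once left 82 windows with a pSHF excess and 529 with an HT excess, but pSHF stayed ahead in all 166 windows. HT peaks were within 1 kb of the summit for 12.4% of members and 18.2% of other pSHF-restricted peaks.

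Shared peaks in the same windows were higher in HT. The rule did not use their height. The pSHF windows held 322 shared pSHF peaks, and 316 shared peaks entered this comparison. Their median fold was 5.03 in pSHF and 6.57 in HT, and the median log2 ratio of pSHF to HT fold was −0.25. It was −0.32 for 25930 shared peaks elsewhere and −0.36 for 1766 in HT windows. Fold was higher in pSHF at 23.1% of the shared peaks in pSHF windows, at 21.9% elsewhere and at 21.2% in HT windows. With 1 list per tissue, the differences between these medians were not tested.

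Gene lists were met to different extents. Of 21627 protein-coding genes, 385 (1.78%) overlapped or flanked a pSHF window within 100 kb, and 2167 (10.0%) an HT window. Of 305 listed genes, 26 (8.52%) did so for pSHF and 54 (17.7%) for HT. The lists were chosen with earlier results of these data known, so list shares beside all-gene shares are a description and no test. The forkhead list had 3 of 9 genes at pSHF windows (Foxf1, Foxc2 and Foxd2) and 0 at HT windows, and second heart field genes had 4 of 19 (Foxf1, Foxc2, Tbx1 and Six2) against 3 of 19 (Fgf8, Hand1 and Hand2). Of 17 genes of the Hedgehog list, 1 (Gas1) was at a pSHF window and 2 were at HT windows, Sufu among them.

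Muscle gene lists stood out at HT windows only. Of 20 sarcomere genes, 1 (Nebl, 5.0%) was at a pSHF window and 11 (55.0%) at HT windows. Of 16 cardiac transcription factors the counts were 0 and 5 (31.2%). All protein-coding genes gave 1.78% and 10.0%, so a count of 0 at pSHF windows in a short list shows little. Atrial identity and pacemaker genes gave 0 of 16 at pSHF windows and 3 at HT windows (Nppa, Nppb and Bmp10), and erythroid markers 0 of 13 and 9. Retinoic acid genes gave 0 of 17 and 2, and Bmp and Tgf beta genes 0 of 17 and 2, where 2 is 11.8% and near the share of all genes. Wnt genes gave 1 of 21 (Rspo1) and 2, and guidance genes 2 of 20 (Unc5b and Nrp2) and 0. Fgf, Pdgf and Erbb genes gave 2 of 18 (Pdgfc and Errfi1) and 2, visceral and limb mesenchyme 2 of 18 (Six2 and Pkdcc) and 2, and extracellular matrix genes 0 of 15 and 1. Somite markers gave 1 of 12 (Meox1) and 1, neural tube 0 of 12 and 1, neural crest 0 of 10 and 1, endothelium 1 of 15 (Flt1) and 5, epicardium 0 of 10 and 1, and cardiomyocytes 0 of 9 and 7. Several lists share genes, and genes of a window are not independent of each other.

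**Figure D4:**
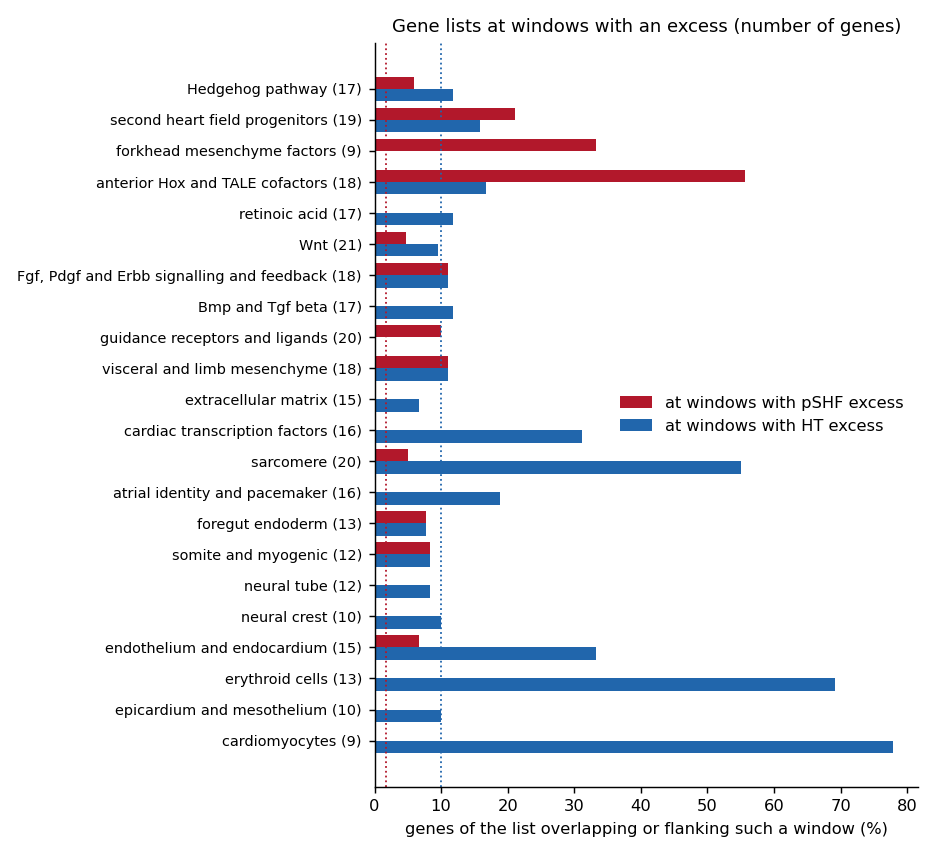
Share of each gene list (%; number of genes in parentheses) that overlaps or flanks a window with a pSHF excess (red, above) or an HT excess (blue, below), with dotted lines at the shares of all protein-coding genes, 1.78% and 10.0%. The longest red bar is the Hox list, with 10 of 18 genes from 2 windows, and the longest blue bar is the cardiomyocyte list, with 7 of 9. The lists were chosen with earlier results of these data known, so bars and lines were not tested against each other.

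**Figure D5:**
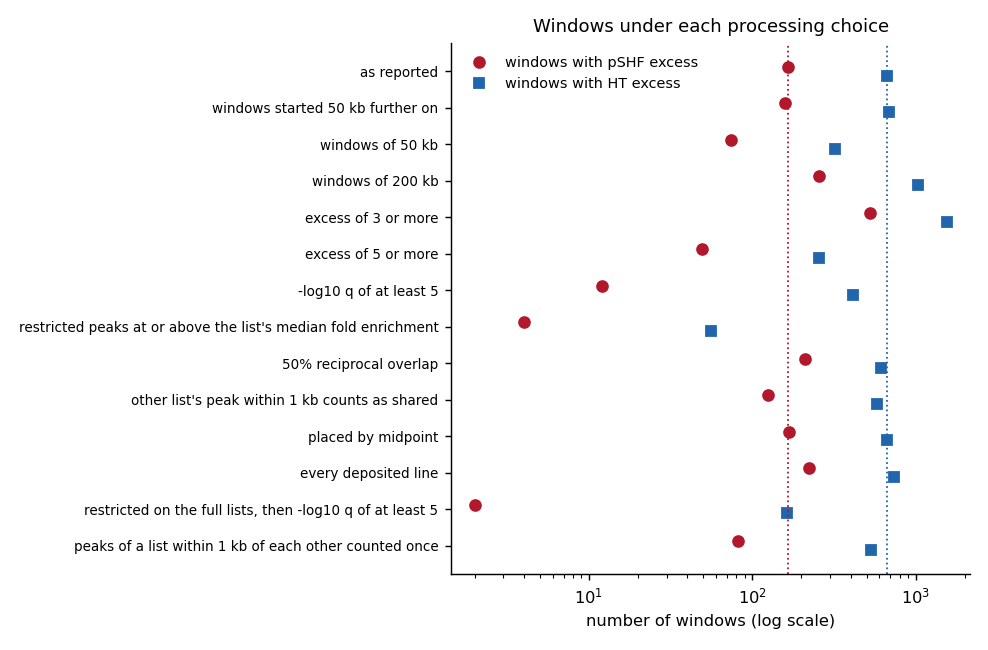
Number of windows with a pSHF excess (red circles) and an HT excess (blue squares) under each processing choice, on a log axis, with dotted lines at the reported 166 and 664. The red circle is left of the blue square under every choice plotted, and it falls to 12, 4 and 2 windows under the 3 choices that drop weak peaks.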

How the data were processed

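ATAC-seq reads of pSHF and HT were processed by the authors with Bowtie2 2.3.2, SAMtools 1.5, Picard and MACS2 2.1.1 on mm10, per the submitters' processing notes. How the 3 samples of a tissue became 1 list was not given in these sources. Each deposited list gives, per line, a score, a fold enrichment (ratio to local background), −log10 p and −log10 q, and the summit offset in bp. The score was 10 times −log10 q in 100% of lines, within 1. Here, 58887 pSHF and 60223 HT lines were merged to 44018 and 49267 peaks, the summit of highest fold standing for each. Summit reads were recovered from fold and p-value, within 0.01 on the log10 scale, for 100% of peaks. Fold was taken for this as pileup over background with a read added to both. Restricted peaks share no base with the other list. Gene positions came from RefSeq (GRCm38.p6, 21627 protein-coding genes). Steps were tested on simulated lists. Python 3.11.15, pandas 2.3.3 and scipy 1.17.1 were used. Named were windows with an excess of 6 or more, stretches, the 3 tallest members, and windows at listed genes. Members and lists were chosen with earlier results of these data known. With 1 list per tissue no p-values were computed. Some genes are not reported here.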

Additional observations from a re-analysis of the deposited data

How the results depend on the processing

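Counts are given as windows with a pSHF excess, members, stretches and windows with an HT excess, which were 166, 793, 7 and 664 as reported. Windows of 50 kb gave 74, 315, 1 and 322, and windows of 200 kb gave 257, 1430, 15 and 1028. An excess of 3 gave 528, 2007, 30 and 1551, and an excess of 5 gave 49, 286, 2 and 257. Peaks of −log10 q of 5 or more gave 12, 52, 0 and 412, restricted peaks no lower than the median fold in their list gave 4, 18, 0 and 56, and restricted peaks of −log10 q of 5 or more, a choice made after seeing the data, gave 2, 9, 0 and 164. Counting peaks within 1 kb of each other once, also chosen after seeing the data, gave 82, 380, 1 and 529. Fewer peaks entered under these last 4 choices. Of the 17 windows with an excess of 6 or more, 2 still met the rule at −log10 q of 5 or more. With restriction decided first, on the full lists, 1 did. At −log10 q of 5 or more the Clmn, Zhx2 and St6gal1 windows had an excess of -1 each. With restriction decided first, Clmn again had -1, but Zhx2 and St6gal1 had 0, as their windows held 0 HT-restricted peaks in the full lists. A shifted window edge, midpoints, 50% reciprocal overlap, a 1 kb margin and unmerged lines left the 4 counts within 1.5 times, but with the 1 kb margin 119 of the 166 windows met the rule, and Flt1, St6gal1 and Ptpn13 fell to an excess of 3. The number of listed genes at pSHF windows, the median fold and the share of members inside genes stayed within 1.5 times under the choices of gene reach, summit and gene type. No paired analysis was possible because each tissue had 1 peak list without values per sample, and no sample could be left out. Depth limits single members: most rest on 9 reads or fewer.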

Other observations

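A window at a multi-copy gene family was among the members. At chr17:35400001-35500000, which holds the class I histocompatibility genes H2-Q6, H2-Q7 and H2-Q10, 4 pSHF-restricted peaks and no HT-restricted peak were called. Members with folds of 5.39 and 4.27 lay 61 bp from an end of H2-Q7 and 23 bp from an end of H2-Q10, and covered 252 and 82 bases of the promoters of these genes. Reads from near-identical copies can be placed on any of them, so these positions are uncertain. Hhip, a Hedgehog target and antagonist, lay 242 kb from a window with 4 members, whose folds were 3.73, 3.76, 4.45 and 3.77, and Fgf8, a growth factor of the second heart field, lay 136 kb from another, whose members had folds of 3.77, 3.84, 5.15 and 5.30. Both were singled out after their values were seen, and other coding genes lay nearer.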
